A study of Mus musculus with 6 samples.

Results

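The 8 genes described here are those of Th2 factors and type 2 receptors and cytokines: the transcription factor genes Gata3, Stat6 and Nfil3, the receptor genes Il4ra and Il1rl1, and the cytokine genes Il4, Il5 and Il13. They were chosen by name, and each matched 1 locus of the 23203 in the deposited expression table, with no other gene named at that locus. The cells were CD4 T cells of mice, naive at the start and driven towards Th17 cells, which secrete IL-17. All cultures were stimulated alike for 48 h. The plate carried anti-CD3e at 10 µg/ml, and the medium held anti-CD28 at 1 µg/ml with the cytokines IL-23 at 10 ng/ml, TGFb1 at 2.5 ng/ml and IL-6 at 20 ng/ml. The 3 vehicle libraries came from cultures with DMSO. The 3 2DG libraries came from cultures with 2-deoxyglucose (2DG) at 250 µM, a sugar analogue that blocks early steps of glycolysis. No strain, genotype, age or animal number is given, and no label ties replicate libraries to different animals or cultures, so p-values cover only how far these libraries spread, and that spread may be technical. The sample titles carry the numbers 17, 42 and 43 for replicates 1, 2 and 3 of both groups, without saying what they mark. The comparison asks how transcripts of the type 2 programme in Th17 cultures differ with 2DG.

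Type 2 immunity is the arm directed at helminths and allergens, and Th2 cells are its helper T cells. IL-4 binds IL-4Rα, which pairs with the common γ chain, and the kinases JAK1 and JAK3 then phosphorylate STAT6. STAT6 switches on Gata3, and GATA3 opens the cluster that holds Il4, Il13 and Il5. TGF-β is known to hold GATA3 down in T cells, and the Th17, Th1 and Th2 programmes restrain each other through their lineage factors, T-bet and GATA3 among them. Nfil3, also called E4BP4, is a bZIP repressor that in mouse T cells takes part in cytokine control. Il1rl1 encodes ST2, the IL-33 receptor, found on Th2 cells, a subset of regulatory T cells and type 2 innate lymphoid cells.

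The promoters of the cytokine genes are shown because Il4 and Il13 lay side by side and were both barely detected in these cultures. The sequences come from RefSeq on GRCm38.p6, read 5′ to 3′ on the minus strand of chromosome 11, and end before the first start that RefSeq or GENCODE M21 gives. The Il4 stretch is chr11:53618670-53618915 and the Il13 stretch is chr11:53634703-53634952. Capitals mark a STAT6-type motif, TTC and GAA with 4 bases between them, the spacing that STAT6 prefers, and the TATA letters TATATA or TATAAA, with both strands searched and overlapping matches joined.
Il4: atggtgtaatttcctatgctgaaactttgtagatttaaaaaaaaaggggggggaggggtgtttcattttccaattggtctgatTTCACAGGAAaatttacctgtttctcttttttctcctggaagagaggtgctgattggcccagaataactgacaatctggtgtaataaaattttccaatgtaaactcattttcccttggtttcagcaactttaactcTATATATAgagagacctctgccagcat
Il13: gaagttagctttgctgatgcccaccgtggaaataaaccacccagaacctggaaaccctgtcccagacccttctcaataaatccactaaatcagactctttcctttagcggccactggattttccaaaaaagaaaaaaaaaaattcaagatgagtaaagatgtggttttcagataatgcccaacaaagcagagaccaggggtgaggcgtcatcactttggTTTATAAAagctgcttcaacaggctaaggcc
The STAT6-type match of Il4 began 167 bases before the RefSeq start, and such letters stood in 5.85% of all 32841 promoter windows of 250 bases. TATATA stood in 5.25% of the windows and TATAAA in 12.4%. The window of Il13 held no STAT6-type match, which says only that these letters were not in it.

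All 8 genes had at least 1 start in the promoter table. GC content of the 250 bases before the start ran from 37.6% for Il5, the Il4 start shown above and the first Il1rl1 start to 81.6% for Nfil3, against a median of 52.4% over all windows. The well-expressed genes Il4ra (59.6%), Stat6 (56.8%) and Nfil3 stood above that median, and so did Gata3 (70%), which was listed under 1 FPKM in every library. The other start of the barely detected Il4, at 52.8%, was just above it too. The Il4ra window held the octamer-like letters ATGNAAAT at 3 places, all matched on the plus strand, where 5.03% of windows held any match on either strand. They are shown because Il4ra was the gene of the 8 with the largest difference among those tested. The earliest GENCODE transcript of Il4ra begins at position 125552120 of chromosome 7, and its first exon ends at 125552328, so these sites lie inside that exon and 139, 67 and 34 bases before the RefSeq start. Capitals mark the matched letters in chr7:125552124-125552147, chr7:125552196-125552219 and chr7:125552229-125552252, GRCm38.p6, plus strand.
Site at 139: ggtggggcATGCAAATaagccagc
Site at 67: ggcggggcATGTAAATgaccgtgc
Site at 34: ggcgtcgcATGTAAATaagggaca

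The genes stood at levels far apart. Values are FPKM as the authors deposited them, that is, fragments scaled by transcript length and for library size, by settings not given. Levels can be compared between genes only roughly. Small RNA genes held 69.8% to 76.1% of the summed FPKM, and some low values may be failed estimates, as described below. Over the 6 libraries the mean was 129 FPKM for Il4ra, 68.7 FPKM for Stat6 and 31.6 FPKM for Nfil3, the chain that binds IL-4, its signal transducer and the bZIP repressor. These lay at the 95.8th, 91.6th and 81.5th percentile of loci above 0. The other 5 genes were under 2.5 FPKM in every library. Their means were 1.07 FPKM for Il4, 0.878 FPKM for Il13, 0.500 FPKM for Gata3, 0.134 FPKM for Il1rl1 and 0.0369 FPKM for Il5. The order Il4ra, Stat6, Nfil3 held in each library without overlap between genes, while Il4, Il13 and Gata3 overlapped one another.

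**Figure D1:**
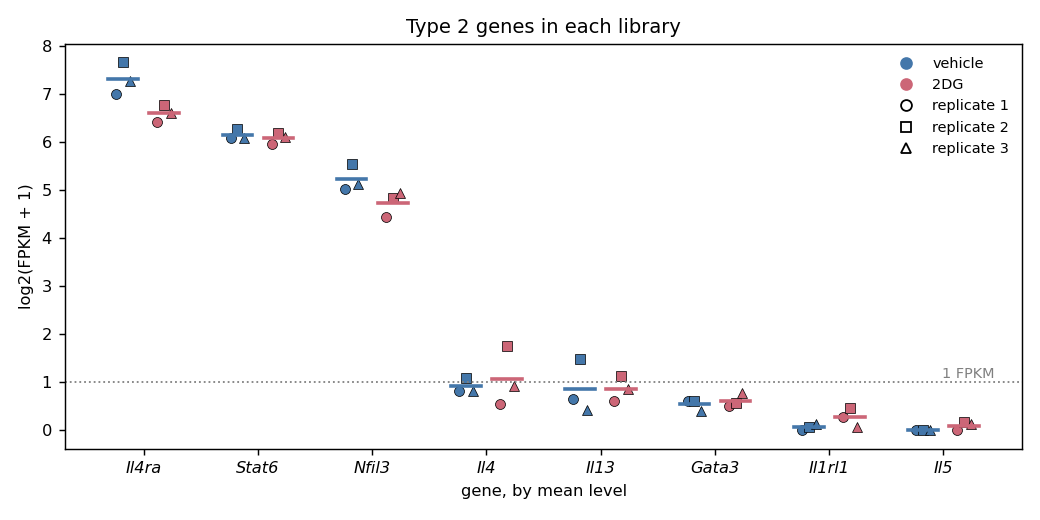
Level of each gene as log2(FPKM + 1) in the 3 vehicle (blue) and 3 2DG (red) libraries, with bars at the group means and symbols for the replicate numbers. Il4ra, Stat6 and Nfil3 stand far above the dotted line at 1 FPKM, and the other 5 genes lie near or under it.

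The libraries set limits on the low values. No read counts were used and absolute depth is unknown. From the steps between low values a fragment was worth roughly 2.38 times as much FPKM in vehicle replicate 2 as in vehicle replicate 1. That ratio ran from 0.901 in 2DG replicate 1 to 1.68 in vehicle replicate 3 and 2DG replicate 2 in the other libraries, and only 12.7% to 22.6% of low loci lay at it, so it is rough. Within each group replicate 2 is thus the library of fewest fragments by this estimate. Listed low values may be failed estimates: Gapdh, used by every cell, stood at 0.135 to 1.12 FPKM. All 9 T cell markers passed the filter, with none called by limma and 0 at an unadjusted p under 0.05. Over all tested loci these shares were 2.72% and 17.9%. Markers of mast cells and basophils summed to 0.275 to 0.624 FPKM with vehicle and 0.409 to 0.579 FPKM with 2DG, with Cpa3, Mcpt8, Fcer1a and Gata2 at 0 throughout. Sums for eosinophil and dendritic cell markers stayed under 1.5 FPKM, and those for B cells (up to 4.20 FPKM) and macrophages (up to 2.77 FPKM) under 5 FPKM. CD8 T cell markers summed to at most 38.6 FPKM, NK cell markers to at most 37.7 FPKM and erythroid markers to at most 0.385 FPKM, each maximum in a vehicle library. None of these was called by limma, and 1, Nkg7, had an unadjusted p under 0.05. The CD8 T cell and NK cell lists share Klrd1, at 35.3 FPKM in vehicle replicate 2, where both sums were highest. Cd8a was at most 0.592 FPKM. Of the type 2 innate lymphoid list 1 of 7 genes was tested, Id2, which Th17 cells also express. It rose from 72.3 ± 13.9 to 146 ± 10.1 FPKM (SD, n = 3 each, limma adjusted p = 0.017), a call lost on leaving out 2DG replicate 1, 2DG replicate 2 or vehicle replicate 2 (adjusted p of up to 0.066). Under the filter, Areg (0.365 to 0.983 FPKM in the means) and Calca (0.323 to 0.825 FPKM) were also higher in every 2DG library. The groups overlapped for Klrg1, Arg1, Il17rb and Hpgds. Of all loci under the filter but above 0, 10.2% did not overlap in either direction.

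None of the 4 genes that entered the fit across all loci passed the test (limma, 0 of 4 at an adjusted p under 0.05). Over all 10228 loci tested 2.72% were called. At an unadjusted p under 0.05 there were 2 of the 4, Il4ra and Nfil3, against 17.9% of all loci. Both were lower with 2DG without overlap between the groups, as were 11.8% of all loci, and 23.7% of loci did not overlap in either direction. Of the 4 genes under the filter none had groups that did not overlap, against 10.2% of all loci under the filter but above 0. The filter asked for a mean of at least 1 FPKM, which Il4ra, Stat6, Nfil3 and Il4 met, and Gata3, Il13, Il1rl1 and Il5 did not. Il4 met it only because its mean with 2DG was above 1 FPKM.

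Il4ra (XLOC_018396, chromosome 7, 125552120 to 125579474, GRCm38, plus strand) encodes the IL-4 receptor α chain, shared by the receptors for IL-4 and IL-13. It was at 128, 202 and 154 FPKM in vehicle replicates 1, 2 and 3, and at 84.7, 109 and 96.8 FPKM in the 2DG libraries. Each 2DG library was under each vehicle library, and vehicle replicate 2 was the highest of all. The means were 161 ± 37.5 and 96.9 ± 12.1 FPKM (SD, n = 3 each), a ratio of 0.601. The log2 difference was -0.71 ± 0.17 (SE, 95% interval -1.12 to -0.30, limma adjusted p = 0.086), which did not pass. Only 1.85% of all tested loci lay as low or lower. It was -0.54 without vehicle replicate 2 and -0.86 without vehicle replicate 1, with no call in either case. When small RNA genes were left out of the tested loci, a choice made after seeing the data, the same difference had an adjusted p of 0.041.

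Neither the chain that pairs with IL-4Rα nor the kinases JAK1, JAK3 and TYK2 passed the test. Il2rg, the common γ chain, stood in vehicle libraries at 157, 141 and 130 FPKM, and in 2DG libraries at 133, 128 and 141 FPKM. Its groups overlapped, and its log2 difference was -0.09 with a 95% interval from -0.31 to 0.13 (limma adjusted p = 0.67). Within a library the log2 ratio of Il4ra to Il2rg was -0.30, 0.51 and 0.24 with vehicle and -0.64, -0.23 and -0.54 with 2DG. The groups overlapped, since the value of vehicle replicate 1 was below that of 2DG replicate 2 (exact two-sided permutation test, p = 0.2, adjusted over the 4 ratios computed 0.2). Jak1, the kinase bound to IL-4Rα, differed by -0.01 (95% interval -0.20 to 0.19). Jak3, which shares its locus with Insl3, differed by -0.01 (-0.29 to 0.27), and the sign of both changed with another scaling of the libraries. Tyk2, a kinase of the IL-13 receptor, differed by -0.21 (-0.44 to 0.02). The other chains of the IL-13 receptors were hardly seen, with Il13ra1 at 0.117 to 0.412 FPKM and Il13ra2 listed at 0 throughout.

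Stat6 (XLOC_001769, chromosome 10, 127642986 to 127660957, plus strand), the transcription factor that IL-4 activates, was at 66.8, 76.8 and 66.7 FPKM under vehicle and, under 2DG, 61.3, 72.3 and 68.5 FPKM. The groups overlapped across most of their range, and replicate 2 was the highest library in each. The means were 70.1 ± 5.77 and 67.4 ± 5.59 FPKM (SD, n = 3 each), and the log2 difference was -0.06 (95% interval -0.28 to 0.17, limma adjusted p = 0.80). In fold terms the interval ran from 0.823 to 1.12. The log2 ratio of Stat6 to Il4ra within a library was -0.93, -1.38 and -1.19 with vehicle and -0.46, -0.58 and -0.49 with 2DG. The groups did not overlap, with every 2DG library higher, a mean difference of 0.65. Its exact two-sided permutation p was 0.1, the smallest that 3 against 3 can give, and 0.13 adjusted over the 4 ratios. Il4ra was lower in every 2DG library, while the groups overlapped for Stat6 itself, so the ratio mostly repeats the difference of Il4ra.

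**Figure D2:**
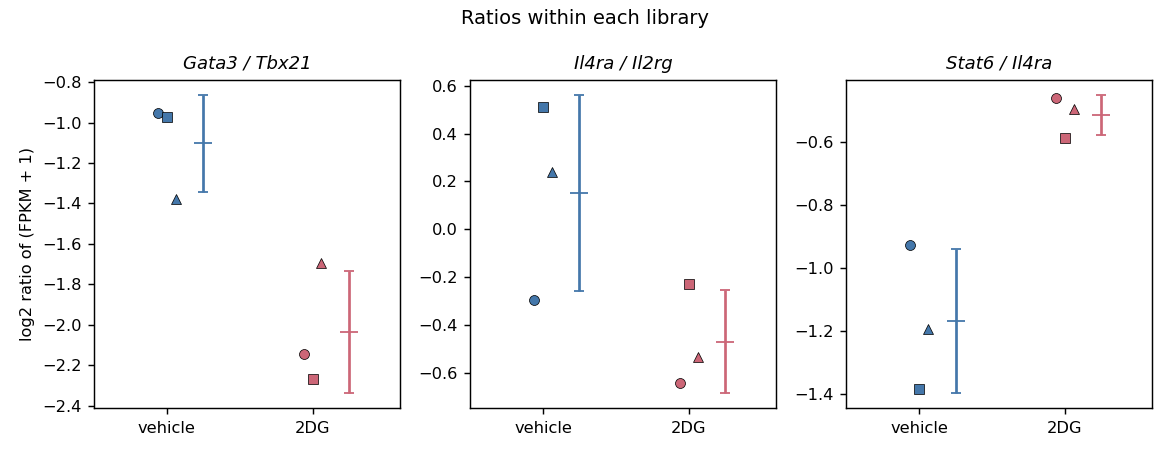
Log2 ratios of (FPKM + 1) between gene pairs in each library, vehicle in blue and 2DG in red, with symbols for replicate numbers and mean ± SD (n = 3) beside the points; the 3 vertical axes differ. The ratio of Gata3 to Tbx21 was lower, and that of Stat6 to Il4ra higher, in every 2DG library, while that of Il4ra to Il2rg overlapped.

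Beyond these genes, 3 of 12 tested members of the list of IL-4 and IL-13 receptor chains, kinases, adaptors and inhibitors were called, 1 higher and 2 lower, with 9 not called, where 1.53% of all tested loci were called higher and 1.19% lower. The median log2 difference was -0.07, beside -0.01 over all tested loci. Socs1, a cytokine-induced inhibitor of JAK kinases, fell from 131, 121 and 122 FPKM to 75.5, 80.7 and 68.7 FPKM, with a log2 difference of -0.72 ± 0.08 (SE, limma adjusted p = 0.0099). Leaving out any single library kept the call, at an adjusted p of up to 0.0496. Irs2, an adaptor that docks at IL-4Rα, fell from 5.89 ± 1.36 to 2.60 ± 0.375 FPKM (SD, n = 3 each, limma adjusted p = 0.043). Its call held without vehicle replicate 3 (adjusted p = 0.031) and was lost without any other single library (highest 0.14), and with no filter on low values (0.090). Jak2 rose from 76.6 ± 1.43 to 105 ± 5.91 FPKM (SD, n = 3 each, limma adjusted p = 0.027). That call was lost without any single library (adjusted p from 0.058 to 0.12).

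**Figure D3:**
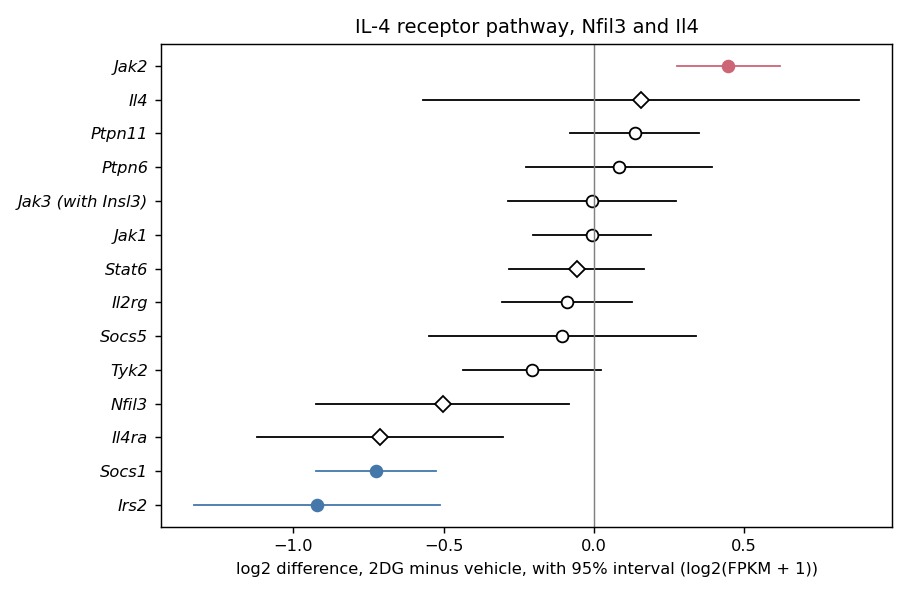
Log2 difference of log2(FPKM + 1), 2DG minus vehicle, with the 95% interval from limma, for the 12 tested genes of the receptor list and for Nfil3 and Il4. Diamonds are the type 2 genes described here, filled symbols are genes past the test; Irs2 and Socs1 fell, Jak2 rose, and the intervals of Il4ra and Nfil3 lie under 0 without passing the adjusted threshold.

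Nfil3 (XLOC_005491, chromosome 13, 52967209 to 52981073, minus strand) was at 31.6, 46.0 and 34.3 FPKM in vehicle libraries and 20.6, 27.6 and 29.7 FPKM in 2DG libraries. Every 2DG library was under every vehicle library, by a narrow margin between 2DG replicate 3 and vehicle replicate 1. The means were 37.3 ± 7.67 and 26.0 ± 4.74 FPKM (SD, n = 3 each), a ratio of 0.697. The log2 difference of -0.50 ± 0.18 (SE, 95% interval -0.92 to -0.08, limma adjusted p = 0.20) did not pass, and 3.7% of tested loci lay as low or lower. It was -0.35 without vehicle replicate 2 and -0.61 without vehicle replicate 1, never called. NFIL3 competes with the D-box activators DBP, TEF and HLF for the same DNA sites. In the list of NFIL3, those factors and clock genes, 1 of 12 tested members rose, against 1.53% of all tested loci, none fell and the median was 0.10. The called gene was Rora, a nuclear receptor gene of Th17 cells, which rose from 12.9 ± 0.968 to 22.8 ± 2.25 FPKM (SD, n = 3 each, limma adjusted p = 0.016). Without 2DG replicate 1 its adjusted p was 0.056.

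Gata3 (XLOC_011592, chromosome 2, 9857078 to 9890034, minus strand), the lineage factor of Th2 cells, was listed at 0.525, 0.528 and 0.323 FPKM in vehicle libraries and 0.412, 0.486 and 0.724 FPKM in 2DG libraries. The groups overlapped (exact two-sided permutation p = 0.6, n = 3 each). At such levels the table's estimates are weak, and the authors' status for the locus was NOTEST. By comparison, Tbx21, the gene of the Th1 factor T-bet, was at 1.95, 2.00 and 2.44 FPKM under vehicle and, under 2DG, 5.24, 6.16 and 4.58 FPKM. The log2 ratio of Gata3 to Tbx21 was -0.95, -0.97 and -1.38 with vehicle and -2.14, -2.27 and -1.70 with 2DG. It was lower in every 2DG library, by 0.93 in the mean (exact two-sided permutation p = 0.1, the smallest possible, and 0.13 adjusted over the 4 ratios). Tbx21 was higher in every 2DG library, while the groups overlapped for Gata3 itself.

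Among 20 tested genes of other and shared Th2 regulators, Gata3 left out by the filter, 1 rose, 2 fell and 17 were not called, with a median of 0.09. The shares over all tested loci were 1.53% higher and 1.19% lower. Ets1, a T cell transcription factor gene, fell from 297 ± 16.6 to 202 ± 4.56 FPKM (SD, n = 3 each, limma adjusted p = 0.018). Notch2, a receptor that can promote Gata3 and Il4 in T cells, fell from 20.1 ± 2.12 to 11.9 ± 1.07 FPKM (adjusted p = 0.019 by limma). Dusp10, a phosphatase of stress-activated kinases, rose from 7.05 ± 0.925 to 12.8 ± 1.40 FPKM (adjusted p = 0.022 by limma). Without vehicle replicate 2 or any single 2DG library all 3 calls were lost, and without vehicle replicate 1 those of Notch2 and Dusp10 (highest adjusted p 0.080, 0.080 and 0.10 for Ets1, Notch2 and Dusp10). With no filter Dusp10 had an adjusted p of 0.058. Maf, Junb, Irf4, Batf, Gfi1, Stat5a and Stat5b were not called. Of the 20, 5 were higher with 2DG and 5 lower without overlap between the groups, against 11.9% and 11.8% of all tested loci. Batf (101 to 170 FPKM in the means, limma adjusted p = 0.071) and Gfi1 were among the higher. Satb1 (165 to 90.8 FPKM, limma adjusted p = 0.057) and Irf4 were among the lower, and Satb1 was not called either.

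Of 11 tested genes for factors that restrain the Th2 programme, 4 rose, 0 fell and 7 were not called, with a median log2 difference of 0.27 beside -0.01 over all loci. Over all tested loci 1.53% were called higher. Without overlap between the groups, 5 of the 11 were higher with 2DG and 2 lower, against 11.9% and 11.8% of all loci. Sox4, among these 5, rose from 0.648 to 2.00 FPKM in the means and was not called (limma adjusted p = 0.15). It met the filter only because its mean with 2DG was above 1 FPKM. The 2 lower were Runx3 (7.89 to 5.74 FPKM in the means, limma adjusted p = 0.17) and Cblb (18.1 to 11.4 FPKM, limma adjusted p = 0.29). Neither was called. Bcl6, a repressor of type 2 inflammation in mice, rose from 0.992, 2.30 and 2.28 FPKM to 6.32, 6.65 and 6.85 FPKM, by 1.45 ± 0.21 on the log2 scale (SE, limma adjusted p = 0.018). Its 2DG libraries were tightly grouped and its vehicle replicate 1 low. Tbx21 rose by 1.01 ± 0.13 (limma adjusted p = 0.016). Zfpm1, whose product FOG-1 represses GATA3 activity, rose from 2.61, 3.43 and 2.93 FPKM to 7.70, 8.28 and 5.15 FPKM, by 0.99 ± 0.18 (limma adjusted p = 0.037). Runx1, a factor that can repress Gata3 in T cells, rose by 0.83 ± 0.14 (limma adjusted p = 0.030). Leaving out 2DG replicate 1 or 2DG replicate 2 ended all 4 calls, and leaving out 2DG replicate 3 ended that of Bcl6. Leaving out vehicle replicate 2 ended those of Tbx21, Zfpm1 and Runx1, and leaving out vehicle replicate 1 or 3 those of Zfpm1 and Runx1. The highest adjusted p were 0.070, 0.068, 0.14 and 0.12 for Bcl6, Tbx21, Zfpm1 and Runx1. With no filter on low values the calls of Runx1 (adjusted p = 0.068) and Zfpm1 (0.084) were lost too, and that of Zfpm1 also with a minimum mean of 5 FPKM (0.054). These genes also act outside the Th2 programme, in follicular helper, Th1 and Th17 cells.

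The cytokine genes Il4, Il13 and Il5 lie in one cluster on chromosome 11, with the DNA repair gene Rad50 between Il13 and Il5. Il4 (XLOC_003400, 53602982 to 53618669, minus strand) was at 0.773, 1.14 and 0.778 FPKM in vehicle libraries and 0.454, 2.40 and 0.888 FPKM in 2DG libraries. The 2DG libraries held both the lowest and the highest value, and the highest was that of replicate 2. The log2 difference was 0.16 (95% interval -0.57 to 0.88, limma adjusted p = 0.84), and in fold terms the interval ran from 0.674 to 1.84. Without 2DG replicate 2 the gene was under the filter.

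Il13 (XLOC_003401, 53631324 to 53634702, minus strand), which shares a receptor with IL-4, was at 0.579, 1.81 and 0.346 FPKM under vehicle and, under 2DG, 0.526, 1.19 and 0.813 FPKM. The groups overlapped fully (exact two-sided permutation p = 1, n = 3 each). As for Il4, replicate 2 gave the highest value within each group, and by the rough estimate above replicate 2 was the shallowest library of each group, a link that was not tested. Il5 (XLOC_002555, 53720794 to 53725106, plus strand), the eosinophil growth factor gene, was listed at 0 in the 3 vehicle libraries and in 2DG replicate 1. It was at 0.130 and 0.0914 FPKM in 2DG replicates 2 and 3, too low for a fold change. Its exact two-sided permutation p was 0.4.

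The neighbours of the cytokine genes were expressed around them. Rad50 was between 18.8 and 20.3 FPKM with vehicle and between 18.6 and 19.2 FPKM with 2DG, and its log2 difference was -0.05 (95% interval -0.22 to 0.12). Irf1, beyond Il5, was at 20.5 to 27.0 FPKM and 21.4 to 26.0 FPKM. Kif3a, beside Il4, was at 3.60, 2.73 and 2.70 FPKM in vehicle libraries and 1.33, 1.89 and 2.32 FPKM in 2DG libraries, without overlap but not called (limma adjusted p = 0.19). Of 5 tested genes of the cluster and its surroundings none was called by limma, and the median was -0.05. Of these 1, Kif3a, had an unadjusted p under 0.05, against 17.9% of all tested loci. Kif3a was also the only 1 without overlap, lower with 2DG, as were 11.8% of all tested loci. The sign of Rad50 turned with another scaling of the libraries, and that of Irf1 with 1 library left out.

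**Figure D4:**
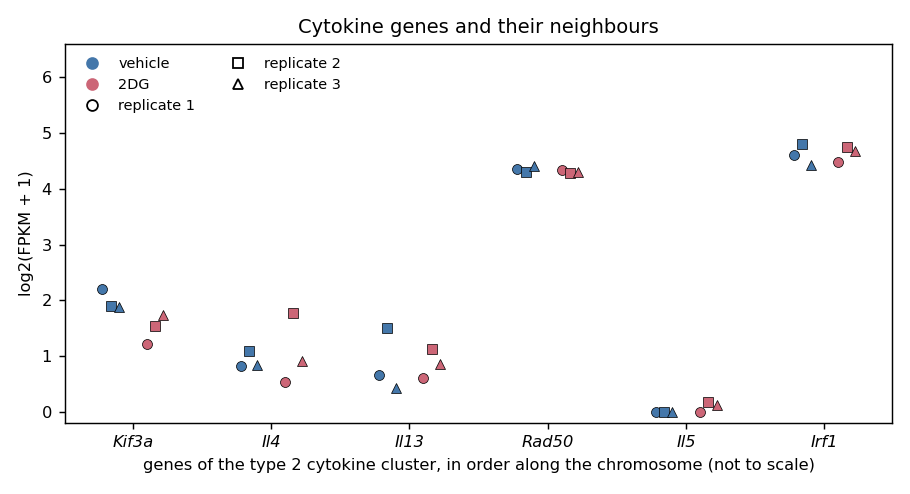
Levels as log2(FPKM + 1) of Il4, Il13, Il5 and 3 neighbours in their order on chromosome 11, with the 3 vehicle libraries in blue and the 3 2DG libraries in red and symbols for replicate numbers. The cytokine genes lie near the floor between Kif3a, Rad50 and Irf1, and the groups overlap for Il4, Il13, Il5, Rad50 and Irf1.

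In the wider list of type 2 and related cytokines 6 of 14 genes were tested, 1 fell and none rose, where 1.19% of all tested loci were called lower. The member that fell was Il24, which Th2 cells induce through STAT6 in mice, from 13.9 ± 4.40 to 0.883 ± 0.539 FPKM (SD, n = 3 each, limma adjusted p = 0.0040). Leaving out any single library kept the call. Il10, made by Th2, regulatory and Th17 cells, was at 16.3, 34.2 and 21.7 FPKM under vehicle and, under 2DG, 10.7, 17.7 and 7.74 FPKM, with overlap between vehicle replicate 1 and 2DG replicate 2 (limma adjusted p = 0.20). The list's median of -0.74 rests on these 6 genes, and Il31, Il25 and Tslp were listed at 0 throughout.

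Il1rl1 (XLOC_000084, chromosome 1, 40429570 to 40465415, plus strand) was at 0, 0.0521 and 0.104 FPKM in vehicle libraries and 0.213, 0.384 and 0.0521 FPKM in 2DG libraries. The highest values were those of 2DG replicates 1 and 2, and 2DG replicate 3 equalled vehicle replicate 2 within 3 digits. The groups overlapped (exact two-sided permutation p = 0.2, n = 3 each), and with every value far under 1 FPKM no fold change is given. Regulatory T cells also carry ST2 and Gata3. Of 11 tested regulatory T cell markers 4 were lower with 2DG, Folr4, Gpr83, Ctla4 and Il2ra, and none was called higher, where 1.19% of all tested loci were called lower. Nrp1 (2.26 to 6.10 FPKM in the means, limma adjusted p = 0.056) and Ikzf2 (0.550 to 2.22 FPKM, adjusted p = 0.087) stood higher in every 2DG library without being called. Ikzf2 met the filter only because its mean with 2DG was above 1 FPKM, and without 2DG replicate 1 it was under the filter. The groups overlapped at the locus of Foxp3, the lineage factor of these cells, which holds another gene too (adjusted p = 0.72). Only Folr4 kept its call without each single library, and that of Ctla4 was lost without any of them. The sum over this list was 1771 to 2222 FPKM with vehicle and 1327 to 1558 FPKM with 2DG. Its part in any result here was not tested. The largest parts of the sum were Capg, Ctla4 and Il2ra, with vehicle means of 597, 587 and 402 FPKM. The Foxp3 locus had a vehicle mean of 8.81 FPKM, so the sum does not measure the number of such cells. In such bulk RNA, fewer cells of a type and less RNA per cell cannot be told apart.

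Of 16 genes for surface receptors linked to type 2 responses 8 were tested, 1 fell, 0 rose and 7 were not called, with a median of -0.14 and 1.19% of all tested loci called lower. The gene that fell was Cysltr1, a receptor for cysteinyl leukotrienes, from 43.1, 36.8 and 35.8 FPKM to 10.6, 13.2 and 15.6 FPKM, a ratio of means of 0.340 (limma adjusted p = 0.0054). All vehicle libraries were at more than 35 FPKM and all 2DG libraries under 16 FPKM. The call held without each library in turn, with an adjusted p of up to 0.027. Il17rb and Ptgdr2, listed as Gpr44, stayed under 0.25 FPKM, while Ccr4, a chemokine receptor of Th2 and other memory cells, stood at 46.3 to 55.8 FPKM and was not called.

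In a list of genes that IL-4 can induce in lymphocytes, which includes Il4ra, Nfil3 and Gata3, 3 of 13 tested members fell, 0 rose and 10 were not called. Over all tested loci 1.19% were called lower. The median log2 difference was -0.50, beside -0.01 over all loci, and 9 of the 13 had lower 2DG libraries without overlap, against 11.8% of all loci. The called genes were Pim1, Il24 and Socs1. Pim1, a survival kinase gene, fell from 149, 159 and 148 FPKM to 72.7, 82.6 and 79.7 FPKM, a log2 difference of -0.95 (SE 0.08, limma adjusted p = 0.0034), a call that leaving out any single library kept. Pim1 and Socs1 also respond to IL-2 and IL-6, so the list is not specific to IL-4, and its genes were chosen with earlier results of these data known.

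**Figure D5:**
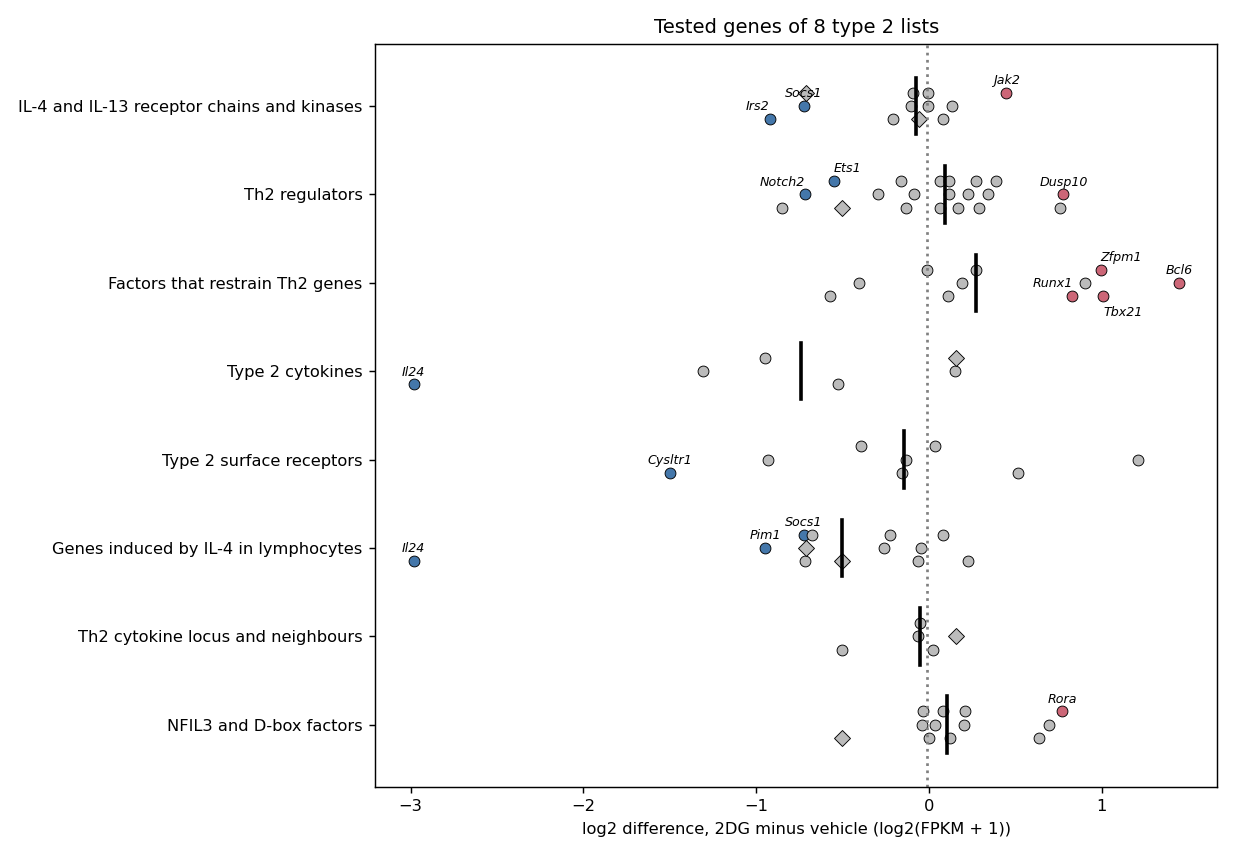
Log2 difference of log2(FPKM + 1), 2DG minus vehicle, of every tested gene in 8 gene lists, with medians as black bars and the median of all tested loci as the dotted line; diamonds are Il4ra, Stat6, Nfil3 and Il4. Called genes are labelled, red for higher and blue for lower, and the 4 called genes among factors that restrain Th2 genes all lie above 0.

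The loci whose values moved most like those of each tested gene were found by the root mean square difference of centred log2 values over the 6 libraries. Small RNA genes, pseudogenes and loci with predicted or clone-based names were left out of the ranking. For Il4ra the nearest loci were Vim, Rnf125 and Cnp, at 0.078, 0.081 and 0.086, against a median of 0.43 over all loci. Vim, the gene of the filament protein vimentin, went from 861 to 527 FPKM in the mean (limma adjusted p = 0.072). For Nfil3 they were Pla2g12a, Dpcd and Capn2, at 0.074 to 0.085, and for Stat6 Acly, Limd1 and H2-Ke2, at 0.020 to 0.025. For Il4 the nearest, Sh3bp5, Ptov1 and Tmie, stood at 0.17 to 0.19. The limma adjusted p of these 12 loci ran from 0.060 for Cnp to 0.90 for Limd1.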

How the data were processed

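Total RNA of 6 libraries was sequenced. Cuffnorm 2.2.1.1, Cuffdiff 2.2.1.3, Cufflinks 2.2.1.0 and TopHat2 2.1.0 are listed in the submitters' processing notes, with mm10 as the build. The annotation, strand and scaling settings were not given in the sources used here. A deposited table holds the authors' FPKM values, 1 per library for each locus, so no count test was made. Absolute depth is unknown.

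The 10228 loci whose mean reached 1 FPKM entered limma 3.58.1 (R 4.3.3, eBayes with trend) on log2(FPKM + 1), with group as the only term, two-sided, Benjamini-Hochberg adjusted, threshold 0.05. The pseudocount of 1 understates changes of low genes. The code was tested on simulated data. Genes under the filter and ratios had exact permutation tests, which cannot go below 0.1. Of 4 ratios computed 1 is not reported here. Lists are described by counts and medians, with no set test.

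The members, 8 gene lists, 11 marker lists and tests were chosen with earlier results of these data known. Named genes are the 8 members, up to 6 called genes per list, fixed reference and partner genes, and the 3 loci most like each tested member. The search for the last left out small RNA genes, pseudogenes and loci with predicted or clone-based names. Other names were chosen after their values were seen. Coordinates come from GENCODE M21 (GRCm38, the assembly of mm10), promoters from RefSeq GRCm38.p6. Alternatives were another pseudocount (0.1), other filters (none, 5 FPKM), scalings, eBayes settings, the replicate block and library subsets. No library copied another: at most 0.479% of tested loci had identical values in a pair. Figures used matplotlib 3.10.9.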

Additional observations from a re-analysis of the deposited data

How the results depend on the processing

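Among the 8 genes, the number called was 0 in the analysis reported and 0 under all alternatives except the replicate block and the omission of small RNA genes, where it was 1, Il4ra (adjusted p 0.045 and 0.041). With 1 library left out it was 0 throughout. The direction of Il4ra and Nfil3 was kept under every alternative, with log2 differences of -0.86 to -0.54 and -0.61 to -0.35. That of Stat6 turned to 0.0086 without 2DG replicate 1 and to 0.0093 without vehicle replicate 2, in a range of -0.11 to 0.0093. Over all loci, the 156 higher and 122 lower calls became 100 and 65 with no filter, 57 and 44 with the replicate block, 43 and 28 with replicates 2 and 3 only, 247 and 199 with robust eBayes, and 262 and 214 without small RNA genes, an alternative chosen after seeing the data. With 1 library left out they ran from 52 to 98 and from 25 to 69. Fewer loci or libraries enter several of these fits, and otherwise the cause was not tested. Across loci, the deviations of same-numbered libraries from their group means correlated at -0.05, 0.19 and -0.11 for replicates 1, 2 and 3. With 3 libraries per group these values cannot show whether the numbers pair libraries, and the numbers were not taken as pairs. In whole-library measures same-numbered libraries did stand alike: small RNA genes held 69.8% and 71.8% of the summed FPKM in the replicate 1 libraries and 75.4% to 76.1% in the others, and the labels do not say what the numbers mark. Of 15 called genes followed through the alternatives, the block left 7 called and not Jak2, Irs2, Ets1, Notch2, Dusp10, Tbx21, Runx1 and Zfpm1 (adjusted p 0.054 to 0.089). Replicates 2 and 3 only left 5 and ended the calls of these 8, Socs1 and Rora (0.098 to 0.26). No filter left 11, without Irs2, Dusp10, Runx1 and Zfpm1 (0.058 to 0.090). The 3 ratios given kept their direction under each alternative. Near 0, signs turned for Jak1 (0.049 with equal sums outside small RNA genes, 0.0092 with replicates 2 and 3 only, -0.058 to 0.049 with 1 library left out) and Jak3 (0.050 with equal sums, 0.023 with quantile normalization, 0.053 with replicates 2 and 3 only, -0.13 to 0.073 with 1 library left out). They also turned for Rad50 (0.0017 with equal sums), and, with 1 library left out, for Irf1 (-0.071 to 0.12) and the Foxp3 locus (-1.06 to 0.019). List medians turned for the Th2 regulators (-0.00301 with replicates 2 and 3 only), with no filter for the cytokines (0.0062), the surface receptors (0.000106) and the cytokine cluster (0.0062), and for the cluster with equal sums (0.0017). The 4 higher calls among factors that restrain Th2 genes became 0 to 3 with 1 library left out. Only large changes could have been seen for Gata3, Il5, Il13, Il4 and Il1rl1, whose values are low.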
